A study of Mus musculus with 18 samples.

Results

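The mitotic spindle is built from microtubules that grow from the centrosomes, from the surroundings of the chromosomes and from the sides of existing microtubules. Spindle assembly factors are the proteins that nucleate, bundle, crosslink and anchor these microtubules. Near the chromosomes the small GTPase Ran releases several of them from importins, and the kinase Aurora A acts on others at the poles. The transcripts of many of them, though not of all, are known to be most abundant from G2 phase to mitosis in cycling cells. The transcripts of 10 such factors, named Nusap1, Tpx2, Hmmr, Ckap2, Ckap2l, Ckap5, Tacc3, Aspm, Numa1 and Spag5, were examined here among the 55450 genes of the count table. Each was found as 1 row by its gene symbol. These genes were selected on measured values, since levels of Nusap1 and its relatives in these same libraries were known when the list was drawn up, and the values below are therefore descriptions without a test.

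ED1SQ4 cells, a single murine lung cancer cell line, were grown for 72 hours with vehicle or with 0.5 μM CYC065, an inhibitor of CDK2 and CDK9, and profiled by RNA-Seq. Cells were stained with a DNA dye and sorted into diploid (2N) and polyploid (4N) populations, and each treatment also has an unsorted library, which gave 6 conditions. DNA content alone does not separate a diploid cell in G2 phase or mitosis from a 4N cell in G1 phase, so both kinds of cell in the 4N gate cannot be told apart here, and this holds for the vehicle and the CYC065 gate alike. The 3 replicates of a condition are named in their labels as parts of 1 library. Each condition was therefore counted as 1 library, n = 1, with no replicate check, and all intervals below cover counting error only.

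Summed counts per library ran from 54750203 in CYC065 2N to 62795507 in CYC065 4N cells. The totals of the 3 parts of a library differed by 0.0154% to 0.0681%, and over genes with whole counts the parts had a chi-square of 0.991 to 1.02 per degree of freedom, where sampling noise alone gives about 1. Over the 10 factors it was 0.323 to 1.21. Levels are given as CPM, counts scaled to a common library size after TMM normalization over the 6 libraries. Markers were checked against the labels. All 5 epithelial markers examined had at most 43 counts in any library, with Epcam at 0 or 1, and leukocyte markers had at most 7 counts. The fibroblast markers Col1a1, Col1a2, Col3a1 and Pdgfra were abundant, while Thy1, the other marker of that list, had 12 to 52 counts. The fibroblast list summed to 6340 to 17698 CPM.

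Promoter sequences are shown because 8 of the 10 factors were over 2-fold higher in 4N than in 2N cells after CYC065, as described below. TTTGAA, a core of the cell cycle homology region found in many G2 and mitosis genes, and CCAAT, the box bound by NF-Y, were searched on both strands (TTCAAA and ATTGG on the reverse strand) from 250 bases before to 50 bases after the RefSeq start of each gene. A match is a description of letters, not a site, and no match of one motif overlapped one of the other in the promoters of the factors. Sequences were available for 9 of the factors, all but Tpx2. TTTGAA was present in 6 of these 9, and in 17.9% of the 32851 mouse promoters in the RefSeq table. CCAAT was present in the same 6 promoters, and in 37.4% of all promoters, and both were present together in 7.0% of all promoters. The 6 were those of Hmmr, Ckap2, Ckap2l, Ckap5, Aspm and Spag5, and neither motif was matched in this window of Nusap1, Numa1 or Tacc3. For Numa1 the start used lies inside the annotated gene (chr7:101934111-102014964), not at its 5′ end. From 130 bases before to 20 bases after that start is chr7:101969713-101969862. The promoters of 5 genes are printed below 5′ to 3′ on the strand of the gene, from 130 bases before to 20 bases after the start (GRCm38.p6), with TTTGAA or TTCAAA in capitals. Aspm lies at chr1:139454643-139454792 (plus strand), Spag5 at chr11:78301461-78301610 (plus), Ckap5 at chr2:91526632-91526781 (plus), Ckap2l at chr2:129297193-129297342 (minus) and Nusap1 at chr2:119618168-119618317 (plus).
Aspm: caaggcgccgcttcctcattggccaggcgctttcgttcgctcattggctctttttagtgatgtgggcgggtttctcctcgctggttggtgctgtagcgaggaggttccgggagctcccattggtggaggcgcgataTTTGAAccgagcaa
Spag5: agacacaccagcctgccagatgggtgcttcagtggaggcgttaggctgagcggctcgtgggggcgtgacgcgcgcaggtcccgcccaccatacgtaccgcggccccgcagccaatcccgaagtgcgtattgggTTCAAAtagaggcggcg
Ckap5: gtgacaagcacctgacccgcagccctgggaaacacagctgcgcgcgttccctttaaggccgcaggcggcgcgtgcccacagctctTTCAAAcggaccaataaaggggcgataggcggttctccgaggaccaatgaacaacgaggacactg
Ckap2l: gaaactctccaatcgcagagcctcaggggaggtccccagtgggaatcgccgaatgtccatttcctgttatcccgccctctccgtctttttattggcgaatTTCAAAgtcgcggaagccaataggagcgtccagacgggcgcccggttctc
Nusap1: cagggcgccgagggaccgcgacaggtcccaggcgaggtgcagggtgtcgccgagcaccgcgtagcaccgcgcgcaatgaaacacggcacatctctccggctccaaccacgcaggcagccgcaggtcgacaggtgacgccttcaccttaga
In Aspm the first base of the match lies at position 7 counted from the start base as 1, in Spag5 at position 4 and in Hmmr at position 9. In Ckap5 and Ckap2l it lies 45 and 30 bases before the start, and Ckap2l holds another match at position 42, outside the printed stretch. Aspm and Ckap2l hold 3 CCAAT matches each in the window searched, Spag5 and Ckap5 hold 2 each, and Hmmr holds 5.

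The first group of factors acts on microtubules near the chromosomes under the control of Ran. Nusap1 encodes a protein that binds, stabilizes and bundles microtubules around the chromosomes (mm10 chr2:119618298-119651244, plus strand). With vehicle, Nusap1 stood at 71.9 CPM in 2N, 99.6 CPM in unsorted and 133 CPM in 4N cells. With CYC065 it stood at 29.4 CPM in 2N, 37.2 CPM in unsorted and 98.5 CPM in 4N cells. Its level was thus highest in vehicle 4N and lowest in CYC065 2N cells, a 4.54-fold span. Only the neighbours vehicle unsorted and CYC065 4N lay within counting error of each other. The counts of the 3 parts were 537, 590 and 541 in CYC065 2N and 2159, 2201 and 2201 in CYC065 4N cells. In vehicle cells they were 1381, 1388 and 1367 in 2N and 2712, 2677 and 2658 in 4N cells. These raw counts did not overlap between the 4 libraries, but the parts of a library differ by about sampling noise. Their separation therefore says nothing about spread between cultures. The share of all genes with such a separation was not counted.

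Tpx2 encodes the activator of Aurora A, which also promotes branching of microtubules (chr2:152847964-152895321, plus strand). Its level was 230 CPM in vehicle 2N, 272 CPM in vehicle unsorted and 351 CPM in vehicle 4N cells. After CYC065 it was 120 CPM in 2N, 119 CPM in unsorted and 278 CPM in 4N cells. The CYC065 2N and unsorted levels of Tpx2 did not differ beyond counting error, and they were the lowest. Hmmr encodes a spindle pole protein that binds Tpx2 (chr11:40701395-40733422, minus strand). It had 96.6, 160 and 175 CPM in vehicle 2N, unsorted and 4N cells, and 31.8, 36.7 and 72.1 CPM in the same order with CYC065. Hmmr had the widest span of the 10 factors, 5.51-fold. Every CYC065 library of Hmmr lay below every vehicle library, a separation that was not counted over all genes.

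Ckap2 and its paralog Ckap2l encode microtubule-associated proteins of the spindle. Ckap2 (chr8:22168160-22185819, minus strand) had 43.3, 55.3 and 71.4 CPM in vehicle 2N, unsorted and 4N cells, and 31.9, 26.1 and 65.0 CPM with CYC065. Its lowest level was that of CYC065 unsorted cells, below the CYC065 2N level. Of the 50-base stretches of its transcripts, 4.33% are shared with other genes, the highest share among the 10 factors. Ckap2l (chr2:129268210-129297212, minus strand) had 89.0, 115 and 143 CPM with vehicle, and 37.1, 48.4 and 98.9 CPM with CYC065, also in the order 2N, unsorted and 4N. This is the order of conditions of Nusap1, and all neighbours in it differed beyond counting error.

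Ckap5 and Tacc3 encode partners in the fibres that run to the kinetochores. Ckap5 encodes a microtubule polymerase (chr2:91526762-91620664, plus strand) and had 415, 426 and 526 CPM in vehicle 2N, unsorted and 4N cells against 233, 244 and 356 CPM with CYC065. Tacc3 encodes an Aurora A substrate that joins Ckap5 and clathrin to these fibres (chr5:33658128-33678995, plus strand). It had 80.8, 102 and 129 CPM with vehicle and 27.4, 34.1 and 59.6 CPM with CYC065. For both genes, as for Hmmr and Numa1, every CYC065 library lay below every vehicle library. The share of all genes with this separation was not counted. The exons of Tacc3 share 289 bases with Tmem129 on the opposite strand, the longest overlap found among the 10 factors.

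Aspm and Numa1 encode proteins of the spindle poles. Aspm binds the minus ends of microtubules (chr1:139454772-139494091, plus strand) and had 122, 231 and 210 CPM in vehicle 2N, unsorted and 4N cells, and 54.8, 82.8 and 170 CPM with CYC065. It was the factor whose highest level was in vehicle unsorted rather than in vehicle 4N cells. Numa1 focuses the poles with dynein (chr7:101934111-102014964, plus strand) and had 209, 226 and 231 CPM with vehicle, and 163, 185 and 185 CPM with CYC065. Its span of 1.42-fold was the narrowest, and its unsorted and 4N levels with CYC065 did not differ beyond counting error. Every CYC065 library of Numa1 also lay below every vehicle library, a separation that was not counted over all genes. Spag5 encodes astrin, which stabilizes the attachment of microtubules to kinetochores (chr11:78301529-78322457, plus strand). Its levels were 65.6, 85.2 and 90.6 CPM in vehicle 2N, unsorted and 4N cells, and 30.6, 34.4 and 70.5 CPM with CYC065, in the order of conditions of Nusap1.

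**Figure D1:**
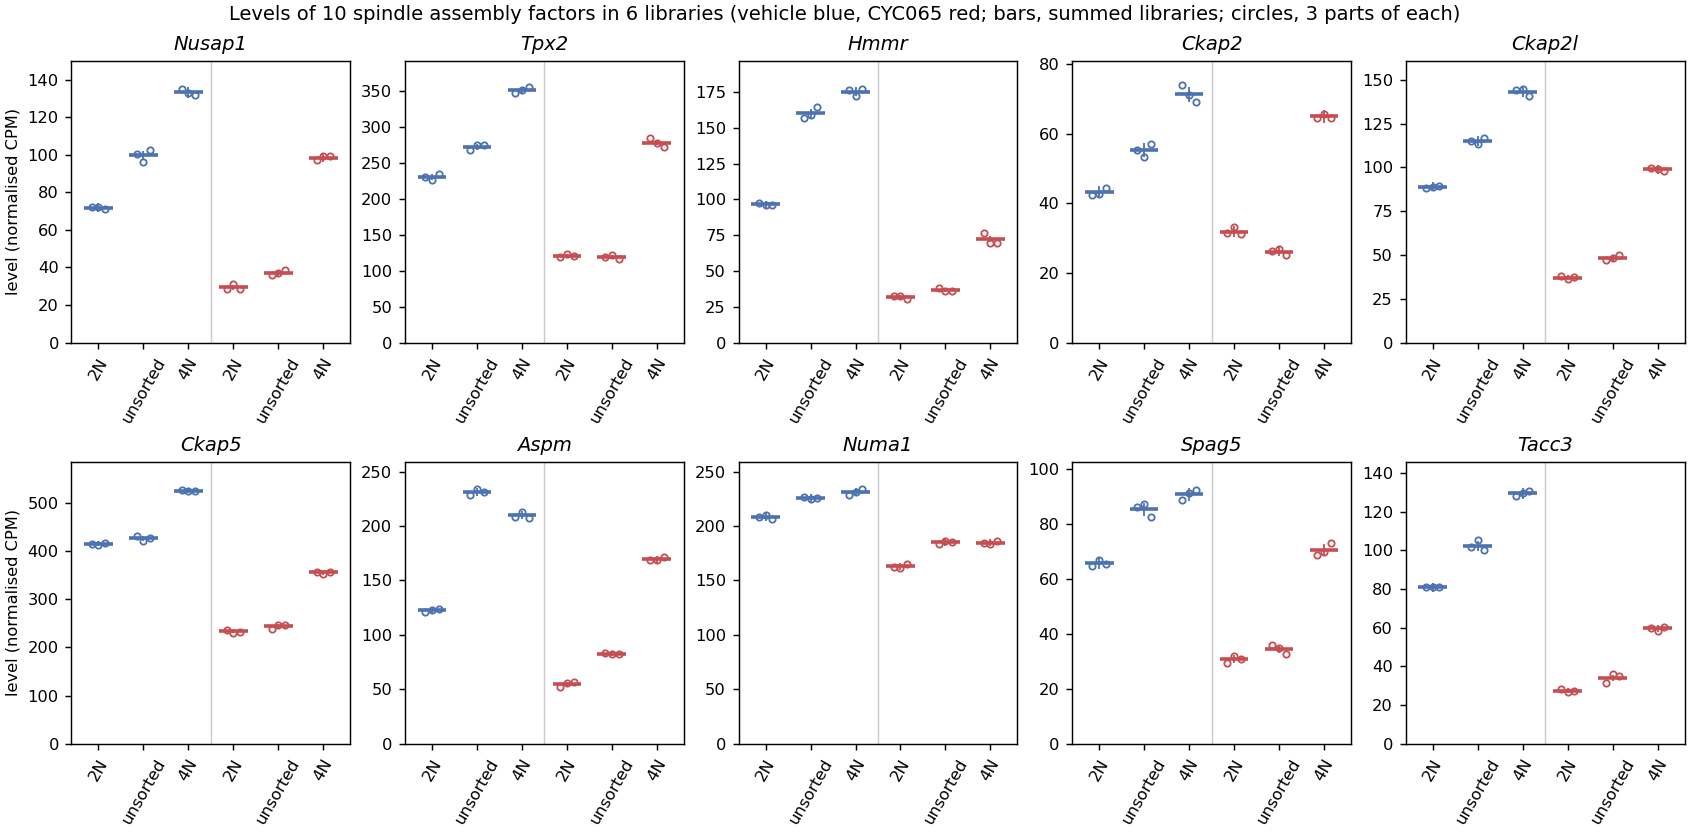
Level of each factor in CPM (vertical axis, from 0, scaled for each gene) in 2N, unsorted and 4N cells with vehicle (blue) and CYC065 (red). Horizontal bars are summed libraries, vertical lines are 95% counting intervals and circles are the 3 parts of a library. In 9 of the 10 panels vehicle 4N is highest, and in 8 CYC065 2N is lowest. The shares of all genes with these extremes were not counted.

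Levels can be compared between genes only per length. As CPM per kilobase of merged exons, Tpx2 was highest in 5 of the 6 libraries, with 75.0 in vehicle 4N and 25.7 in CYC065 2N cells, followed by Ckap5 with 55.6 and 24.6. In CYC065 unsorted cells Ckap5 had 25.8 and Tpx2 had 25.4. Nusap1 was in the middle in vehicle 4N cells with 32.8, close to Hmmr with 32.3, and stood at 7.23 in CYC065 2N cells. Aspm had 18.1 in vehicle 4N and 4.73 in CYC065 2N cells. Numa1 ranked 7 of 10 in vehicle 4N cells with 29.2 and 3 of 10 in CYC065 2N cells with 20.6.

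The 4N and 2N populations were compared within each treatment to ask which transcripts differ with DNA content. After CYC065 treatment, all 10 factors were higher in 4N than in 2N cells, and 8 were over 2-fold higher. The 8 were Nusap1, Aspm, Ckap2l, Tpx2, Spag5, Hmmr, Tacc3 and Ckap2, and Ckap5 and Numa1 were not among them. Among all 14180 genes with at least 30 counts in a library compared, 1.48% were over 2-fold higher. Among genes with at least 1000 counts the share was 1.02%. These shares stand beside the count only, since the factors were picked with this contrast known. Whether the differences exceed the spread between cultures was not tested, since each condition is 1 library. If cultures are assumed to vary with a coefficient of 0.2, fewer of the 8 factors were called, as given below. Nusap1 led with a log2 ratio of 1.75 (counting SE 0.04, 95% interval 1.67 to 1.82), a 3.35-fold difference that ranked 23 among all these genes. Aspm followed with 1.63 (interval 1.57 to 1.69) and Ckap2l with 1.41 (1.34 to 1.48). The log2 ratio was 1.21 for Tpx2, 1.20 for Spag5, 1.18 for Hmmr and 1.12 for Tacc3. Ckap2 was at the threshold with 1.03, and its interval of 0.95 to 1.11 included 1. Ckap5 had 0.61 (0.58 to 0.64) and Numa1 had 0.18 (0.14 to 0.22). The intervals of all 10 lay above 0, as did those of 27.5% of all genes.

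In vehicle-treated cells the same 10 factors were again higher in 4N than in 2N cells, and none was over 2-fold higher. Of all 13365 genes compared, 0.995% were over 2-fold higher and 26.9% had an interval wholly above 0. Among genes with at least 1000 counts, as all 10 factors have, the share over 2-fold was 0.0899%. Nusap1 again had the highest log2 ratio of the 10, 0.89 (counting SE 0.03, interval 0.84 to 0.95). It was 0.86 for Hmmr, 0.78 for Aspm, 0.72 for Ckap2, 0.68 for Ckap2l and 0.68 for Tacc3. Lower values were those of Tpx2 (0.61), Spag5 (0.47), Ckap5 (0.34) and Numa1 (0.15). The median of the 10 was 0.68 with vehicle and 1.19 with CYC065, beside medians of all genes of 0.00060 and 0.0019.

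The difference between the log2 ratios of the treatments, CYC065 minus vehicle, was above 0 for 9 factors by its counting interval. It was 0.85 for Nusap1 (interval 0.76 to 0.95), 0.85 for Aspm (0.78 to 0.92), 0.74 for Spag5, 0.73 for Ckap2l and 0.59 for Tpx2. It was smaller for Tacc3 (0.44), Hmmr (0.32), Ckap2 (0.30) and Ckap5 (0.27). For Numa1 it was 0.03, with an interval of -0.02 to 0.08 that included 0. None of the 10 passed a difference of 1, and 3.47% of all 14482 genes did, while 26.0% had an interval wholly above 0. Among genes with at least 1000 counts the share past 1 was 0.142%.

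**Figure D2:**
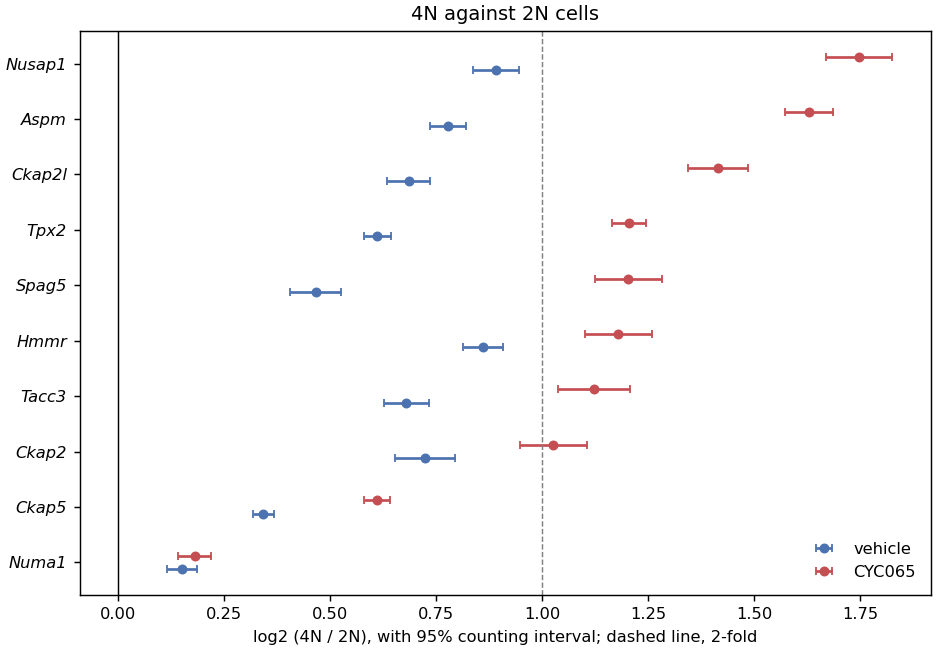
Log2 ratio of 4N over 2N cells (horizontal axis) for each factor with vehicle (blue) and CYC065 (red), with 95% counting intervals and a dashed line at 2-fold. The CYC065 points of 8 factors lie to the right of the line, from Ckap2 at 1.03 to Nusap1 at 1.75, all vehicle points lie to its left, and both points of Numa1 lie close together.

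Markers of proliferation moved alongside these ratios. Top2a and Mki67 had log2 ratios of 4N over 2N of 1.45 and 1.24 with CYC065 and of 0.52 and 0.44 with vehicle. S phase genes, a list of 16, had a median of 0.10 with CYC065 and -0.17 with vehicle. In 4N against 2N cells with CYC065, 4 of the 5 fibroblast markers had intervals wholly below 0, with a list median of -0.35. With vehicle, 4 of the 5 also had intervals wholly below 0, with a median of -0.21, and Thy1, at 12 and 36 counts, was higher in 4N cells. For neither treatment was the share of all genes with intervals wholly below 0 counted. Epithelial markers had at most 43, leukocyte markers at most 7 and endothelial markers at most 91 counts in any library. In bulk RNA, a smaller share of cells that express a gene and less of its RNA per cell cannot be told apart, and the part of cycle position or cell mixture in these ratios was not tested.

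CYC065 and vehicle were compared within each population to ask how treatment differs from control at the same DNA content. In 2N cells all 10 factors were lower with CYC065, and 6 were over 2-fold lower, beside 11.5% of all 14090 genes. The deepest log2 ratios were those of Hmmr (-1.60, counting SE 0.04, 3.04-fold lower) and Tacc3 (-1.56, 2.95-fold lower). Nusap1 had -1.29 (interval -1.37 to -1.21), Ckap2l -1.26, Aspm -1.16 and Spag5 -1.10. Tpx2 (-0.93), Ckap5 (-0.83), Ckap2 (-0.44) and Numa1 (-0.36) were less than 2-fold lower. All 10 intervals lay below 0, as did 42.1% of those of all genes.

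In 4N cells the 10 factors were also lower with CYC065, and Hmmr (-1.28) and Tacc3 (-1.12) were over 2-fold lower, beside 10.1% of all 14183 genes. Nusap1 had -0.44 (interval -0.48 to -0.39), which is 1.35-fold lower. Values for Ckap5 (-0.56), Ckap2l (-0.53), Spag5 (-0.36), Tpx2 (-0.34), Numa1 (-0.32) and Aspm (-0.31) lay around it. Ckap2 was nearest to 0 with -0.13 (-0.20 to -0.07). The intervals of all 10 lay below 0, as did those of 41.2% of all genes. The median log2 ratio of the 10 was -0.40 in 4N and -1.13 in 2N cells.

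In unsorted cells 8 factors were over 2-fold lower with CYC065, beside 12.6% of all 14082 genes. Hmmr had a log2 ratio of -2.12 (interval -2.19 to -2.05), a 4.36-fold lower level and the deepest value of any factor in the 3 populations. Tacc3 followed with -1.58, Aspm with -1.48, Nusap1 with -1.42, Spag5 with -1.31, Ckap2l with -1.25, Tpx2 with -1.19 and Ckap2 with -1.08. Ckap5 had -0.81 and Numa1 -0.28. All 10 intervals lay below 0, beside 42.1% of all genes, and the median of the 10 was -1.28. For Ckap2 the unsorted ratio of -1.08 lay far from both sorted ratios of -0.44 and -0.13. Among the fibroblast markers, 4 of 5 in 2N, 1 of 5 in 4N and 3 of 5 in unsorted cells were over 2-fold higher with CYC065. Among all genes compared, 2288 of 14090, 2199 of 14183 and 1774 of 14082 were over 2-fold higher, in the same order. The part of these markers in the ratios of the factors was not tested.

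**Figure D3:**
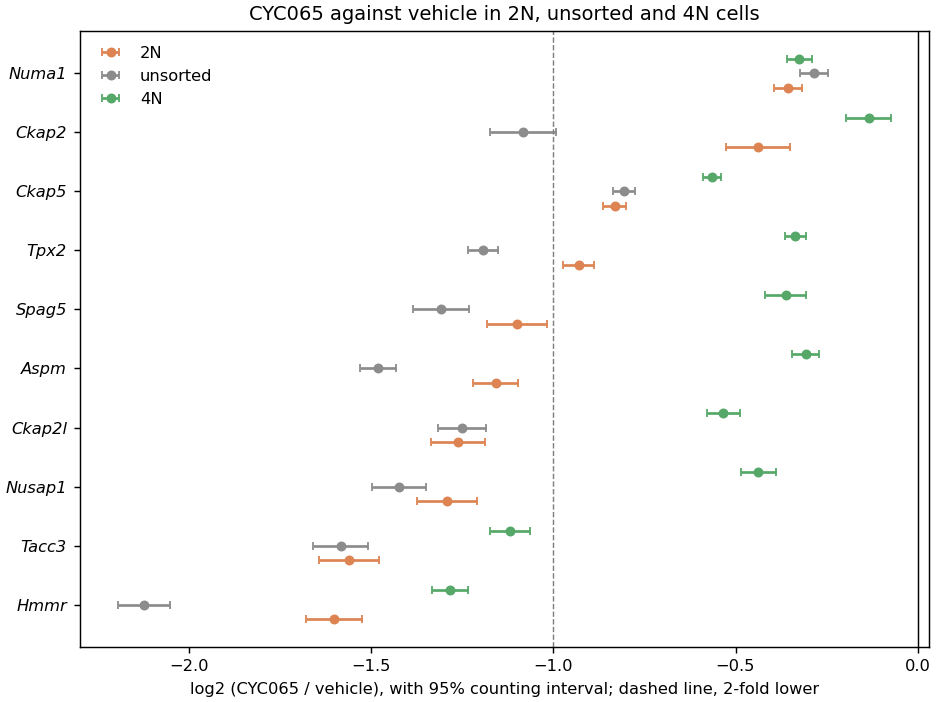
Log2 ratio of CYC065 over vehicle (horizontal axis) for each factor in 2N (orange), unsorted (grey) and 4N (green) cells, with 95% counting intervals and a dashed line at 2-fold lower. All points lie left of 0, and in 4N cells those of Hmmr and Tacc3 lie left of the dashed line.

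The CYC065 4N level was also set beside the vehicle 2N level. It was higher for Ckap2 (log2 ratio 0.59), Aspm (0.47), Nusap1 (0.45), Tpx2 (0.27), Ckap2l (0.15) and Spag5 (0.10). It was lower for Tacc3 (-0.44), Hmmr (-0.42), Ckap5 (-0.22) and Numa1 (-0.18). By value, 6 of the 10 factors thus had a higher level in 4N cells with CYC065 than in 2N cells with vehicle, as did 50.9% of all 14163 genes compared, so the count lies near that of all genes.

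Unsorted cells hold both populations, so each unsorted level was placed on a scale with the 2N level of the same treatment at 0 and the 4N level at 1. With vehicle, 9 factors lay between the sorted levels, with a median position of 0.467, and Aspm lay above both at 1.25. Among all genes compared, 14.7% lay between, 41.8% above both and 43.5% below both sorted levels. Nusap1 lay at 0.452, Hmmr at 0.805 and Ckap5 at 0.103. With CYC065 the position was lower for 9 factors and higher for Numa1. The share of all genes with a lower position was not counted. Of the factors, 7 lay between the sorted CYC065 levels, beside 18.3% of all genes. The median was 0.117, and Nusap1 lay at 0.113. Numa1 lay at 1.03, within counting error of the 4N level. Tpx2 was placed at -0.01, within counting error of the 2N level, and Ckap2 below it at -0.18. By value, 38.8% of all genes lay above and 42.9% below both sorted CYC065 levels. Unsorted cells did not pass through the sorter, and the part of sorting in these positions was not tested.

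**Figure D4:**
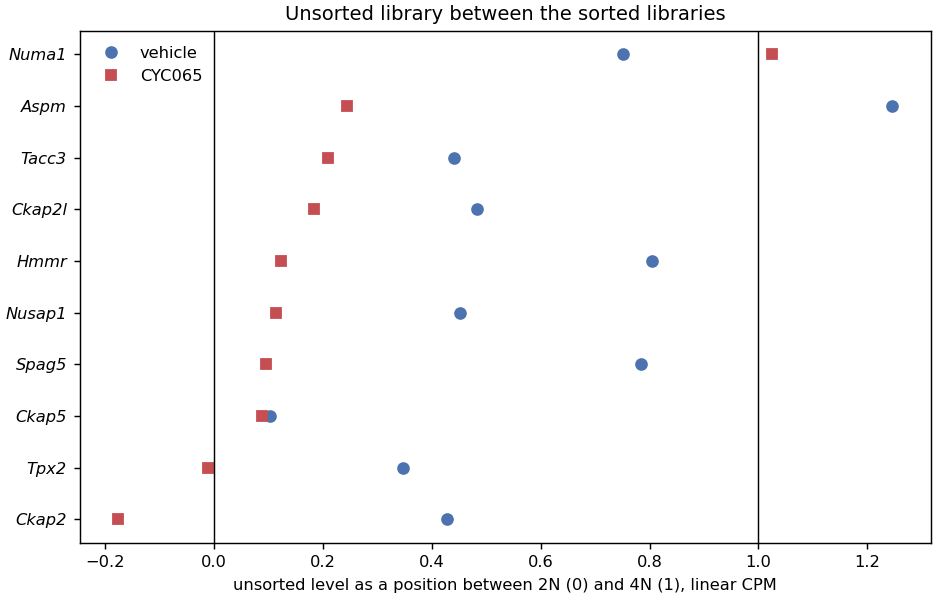
Position of the unsorted level between the 2N level (0) and the 4N level (1) of the same treatment, from linear CPM, for vehicle (blue circles) and CYC065 (red squares). The CYC065 squares of 7 factors lie between 0.088 and 0.244. Each square lies to the left of the circle of its gene except that of Numa1, at 1.03. The share of all genes with such a shift was not counted.

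The profiles over the 6 conditions were compared after each gene was centred on its own mean log2 level. Between pairs of factors, Pearson's r over the 6 conditions ran from 0.643 for Ckap2 and Numa1 to 0.993 for Nusap1 and Ckap2l. These points share libraries, and the values are descriptions. The factor nearest to Nusap1 was Ckap2l, with a root mean square distance of 0.134 on the log2 scale, then Aspm (0.206), Tpx2 (0.214) and Spag5 (0.215). Tacc3 (0.283), Ckap2 (0.340), Hmmr (0.365) and Ckap5 (0.412) were farther, and Numa1 (0.653) was the farthest. Among 8577 genes with at least 1000 counts in a library, the 5 nearest to Nusap1 apart from the factors were Kif2c (0.123), Ccnb1 (0.126), Ect2 (0.138), Kif18b (0.161) and Aurka (0.168). Ckap2l ranked 3 among all of these, and Numa1 ranked 2015.

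Other parts of the spindle assembly machinery were described by gene lists, which were chosen with earlier results of these data known. Shares of all genes therefore stand beside the counts of these lists as description only. The augmin complex places new microtubules on the sides of existing ones. With CYC065, its 8 subunits had a median log2 ratio of 4N over 2N of 0.28, and none was over 2-fold higher. Haus5 was highest with 0.80, and Haus2 was lowest with -0.17. In 2N cells, 4 of the 8 were over 2-fold lower with CYC065 than with vehicle, beside 11.5% of all genes, and Haus5 had -2.12. The gamma-tubulin ring complex nucleates microtubules. Of its 9 genes with enough counts, all had 4N over 2N intervals above 0 with CYC065, beside 27.5% of all genes. Their log2 ratios ran from 0.19 for Tubgcp4 to 0.41 for Nedd1, which recruits the complex to the spindle. Tubg2 had too few counts to be compared.

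Ran and the importins control Nusap1 and Tpx2 near the chromosomes. All 6 genes of this list were over 2-fold lower with CYC065 in 2N and in unsorted cells, and 5 were in 4N cells. Among all genes the shares were 11.5% in 2N, 12.6% in unsorted and 10.1% in 4N cells. Kpna2, an importin alpha, had a log2 ratio of -1.40 in 2N cells and Ran had -1.26. In 4N against 2N cells with CYC065, Kpna2 had 0.93 and Ran had 0.06, with a list median of 0.27. In 4N cells the median log2 ratio of CYC065 over vehicle was -1.19 for this list and -0.40 for the 10 factors.

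Partners of the factors were spread more widely. Aurka, the kinase activated by Tpx2, had a log2 ratio of 4N over 2N of 1.25 with CYC065 and 0.81 with vehicle. Gtse1 (1.15) and Wdr62 (1.08), named after their values were seen, were also over 2-fold higher in that contrast with CYC065. That makes 3 of 17 partners, beside 1.48% of all genes. Dynll1, a dynein light chain that binds Spag5, was lowest with -0.12, and the median of the list was 0.38. Knstrn, the partner of Spag5 at kinetochores, was chosen after its values were seen. It was lower with CYC065 by a log2 ratio of -2.17 in 2N, -1.71 in 4N and -2.45 in unsorted cells, against -1.10, -0.36 and -1.31 for Spag5 itself. Gnai1 had too few counts to be compared.

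The microtubule plus-end proteins had a median log2 ratio of 4N over 2N of 0.02 with CYC065, from -0.19 for Clip2 to 0.34 for Clasp2. Tacc1 and Tacc2 are paralogs of Tacc3. Tacc1 was higher with CYC065 by a log2 ratio of 2.44 in 2N, 2.22 in 4N and 2.70 in unsorted cells, where Tacc3 had -1.56, -1.12 and -1.58. Tacc2 had -0.19, -0.14 and -0.33. In 4N against 2N cells with CYC065, Tacc1 had -0.23 and Tacc2 had 0.10. Among S phase genes, Rrm2 was highest in that contrast with 0.54 and Ccne1 lowest with -0.23. Of the 16 S phase genes, 11 in 2N, 12 in 4N and 14 in unsorted cells were over 2-fold lower with CYC065. Among all genes the shares were 11.5%, 10.1% and 12.6%, in the same order.

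**Figure D5:**
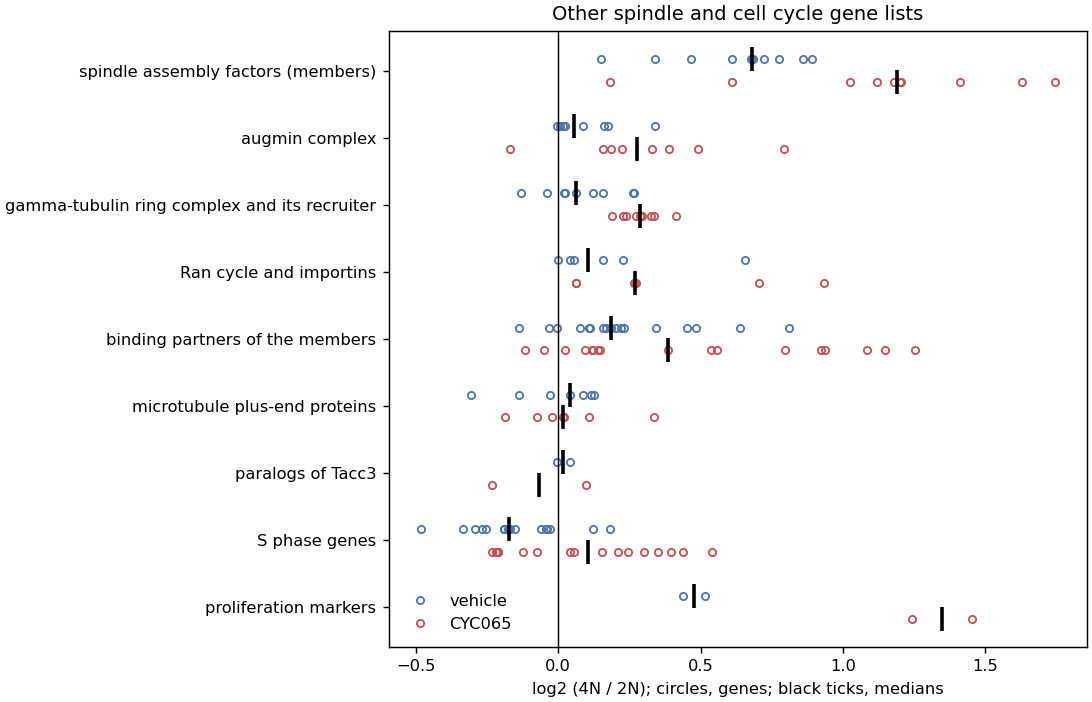
Log2 ratio of 4N over 2N cells (horizontal axis) for the 10 factors and for other gene lists, with vehicle in blue and CYC065 in red. Circles are genes and black ticks are medians. The CYC065 median is 1.19 for the 10 factors, 0.28 for augmin, 0.38 for the partners and 0.02 for the plus-end proteins.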

How the data were processed

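RNA-Seq data were for 18 samples, 3 for each of 6 conditions. The authors trimmed demultiplexed reads (bcl2fastq) with Cutadapt 1.18. Alignment to mm10 was by STAR 2.7.0f, and counts of GENCODE M21 genes were estimated by RSEM. The submitters' processing notes give bcl2fastq 2.17 and RSEM 1.3.1, whereas the methods of the study give later versions of both. Libraries were stranded and depleted of ribosomal RNA. The deposited values are RSEM expected counts, without normalization or a filter, and 9.66% of genes had a fractional value.

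The 3 columns of a condition were summed, rounded and normalized by TMM over the 6 libraries with edgeR 4.0.16 in R 4.3.3. Log2 ratios used a pseudocount of 0.5, with exact binomial 95% counting intervals and a Wald interval for differences of ratios. Genes with at least 30 summed counts in a library compared were included, and 2-fold means a log2 ratio beyond 1. PCR reads are not independent molecules, and intervals cover counting error only. With 1 library per condition no P value is given for a condition. On data simulated from these libraries the calculation was tested first.

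The 10 genes and the gene lists were chosen with earlier results of these data known. Named genes are the 10 factors, the gene with the highest and the lowest 4N over 2N log2 ratio with CYC065 in each list (at least 100 counts), and the 5 genes nearest to Nusap1 (at least 1000 counts). Exceptions are marked. Gene positions and exon lengths came from GENCODE M21 and promoters from RefSeq (GRCm38.p6). Alternatives were other normalizations, filters, a pseudocount of 2, a stricter call, tests on the 3 columns with edgeR and with DESeq2 1.42.0, assumed coefficients of variation of 0.1 and 0.2, and leaving out each column.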

Additional observations from a re-analysis of the deposited data

How the results depend on the processing

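Each condition is 1 library, so spread between cultures was not measured. The coefficients of variation below are assumptions. The test run with them asks whether a log2 ratio differs from 0, not whether it passes 2-fold. The number of factors over 2-fold was unchanged in all 6 comparisons under each other normalization, filter and pseudocount (8, 0, 6, 2, 8 and 0 for 4N versus 2N with CYC065 and with vehicle, the treatments in 2N, 4N and unsorted cells, and the difference). With intervals wholly beyond 2-fold, 7 rather than 8 factors passed in 4N versus 2N cells with CYC065 and in unsorted cells, and the other counts were as before. An assumed coefficient of variation of 0.1 left all 6 counts as they were. With 0.2, edgeR's test at an adjusted P below 0.05 called 2 of the 8 factors over 2-fold in 4N versus 2N cells with CYC065, Nusap1 and Aspm, while the folds of all 8 were as before. Tests on the 3 columns and leaving out 1 column gave the same counts, but the columns are parts of 1 library, so this says nothing about stability between cultures. The fit with a replicate block gave 8 factors there and a median log2 ratio of 1.19. Deviations of same-numbered columns had no common direction between conditions (median r of -0.0077 over 45 pairs). Single pairs did deviate together or in opposite directions, with r from -0.32 to 0.52 and 8 pairs above 0.1. With library size scaling only, the median log2 ratio of the factors was -0.32 in 4N and -1.39 in unsorted cells.

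Counts of all genes depended more on the settings. Without a filter they were 3139 and 2637 for 4N versus 2N with CYC065 and vehicle, 3485, 3254 and 4225 for the treatments in 2N, 4N and unsorted cells, and 4465 for the difference. With at least 1000 counts they were 81, 7, 960, 806, 918 and 12 in the same order. With intervals wholly beyond 2-fold they were 85 and 29 for the 4N versus 2N comparisons and 47 for the difference. With a coefficient of 0.2 these 3 were 16, 14 and 9, and with 0.1 they were 87 for vehicle and 62 for the difference. For the difference, edgeR on the columns gave 288, the replicate block 278 and DESeq2 154, against 503.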
